A study of Mus musculus with 8 samples.

Results

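The nuclear genes for the subunits of the mitochondrial respiratory chain and of ATP synthase were followed across 8 libraries of mouse embryos. They were chosen by gene symbol: the Ndufa, Ndufb, Ndufc, Ndufs, Ndufv, Uqcr, Atp5, Cox4i, Cox5, Cox6, Cox7 and Cox8 names, with Sdha to Sdhd and Cyc1, and without the assembly factors Ndufaf and Sdhaf. This gave 88 of the 24921 genes in the deposited table: 38 of complex I, 4 of complex II, 9 of complex III, 20 of complex IV and 17 of complex V. Ndufa4 and Ndufa4l2 were counted under complex IV, where the Ndufa4 protein sits, and Ndufs5-ps, a pseudogene by its symbol, was counted under complex I. Of these, 86 had enough signal to be tested, and Cox8b and Ndufa4l2 were listed at 0 in all 8 libraries. Levels of Atp5c1, Atp5k, Atp5l, Atp5pb, Cox5b, Cox7c, Ndufa12, Ndufab1, Ndufs5 and Uqcrh are less certain than the rest, since annotated pseudogenes named after them could share their reads. Subunits encoded by mitochondrial DNA were not analysed here, nor were Ndufb1 and Ndufb4b.

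The respiratory chain passes electrons from NADH (complex I) and succinate (complex II) through complex III to oxygen at complex IV. Complexes I, III and IV pump protons across the inner mitochondrial membrane, and complex V, the ATP synthase, uses the gradient to make ATP. Each complex except II joins nuclear subunits with subunits encoded in mitochondrial DNA. The embryo inherits its mitochondria from the oocyte, and the cleaving mouse embryo lives at first mainly on pyruvate and lactate.

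The embryos were of the C57BL/6 strain at passage 1 per the labels, and each group had 2 libraries made by Smart-seq, which amplifies full-length cDNA from very little RNA. The groups were CX45, 8C, CX22 and 2C. The name 8C was taken as the 8-cell embryo and 2C as the 2-cell embryo. The labels spell out neither CX45 nor CX22 and name no control, so no treatment, dose or time is given for them here. They also do not say whether the 2 libraries of a group came from separate embryos, so each p-value reflects only how far these libraries differ, which may be technical. Comparisons were made for 8C against 2C, CX45 against CX22, CX22 against 2C and CX45 against 8C. The series title concerns transcription by RNA polymerase I in early embryos.

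Levels are FPKM, fragments per kilobase of transcript, scaled to the mapped fragments of the library, summed over the transcripts of a gene. The depth of the libraries, read from the step size of low values, ran from 9.73 to 20.16 M fragments (M, 1e6). At these depths a 1 kb transcript with 3 fragments has 0.149 to 0.308 FPKM, which covers counting error only. Over 142 single-exon genes with whole fragment counts, the median chi-square between the 2C libraries was 0.952 times that of chance, and they were averaged and counted as 1 sample. Over all 4974 genes with a single entry it was 1.34 times, with 10.7% of genes beyond the 95% point of chance, and for 7 genes, Atp5j among them, 1 of the 2C libraries had over 10 FPKM where its partner had 0. On single-exon genes the ratio was 63.1 in CX45, 27.5 in 8C and 125 in CX22. The CX22 libraries stood furthest apart: 333 genes, 7 of them subunit genes, were above 10 FPKM in one and at 0 in the other. In CX45 and 8C the same was true of 48 and 16 of the 24921 genes, and of 0 subunit genes. At so low a share over all genes, the 0 is nothing particular to the subunit genes. FPKM is relative to each library's own total, so fewer cells of a type and less RNA per cell cannot be told apart in these data. Transcripts that mark the oocyte and 2-cell embryo differed between the same groups: the 7 genes of that list summed to 164 to 356 FPKM in CX45, 25.9 to 29.6 in 8C, 2135 to 2738 in CX22, against 2749 to 2770 in 2C. The 12 cumulus and granulosa markers summed to at most 10.6 FPKM in any library, and Amh, Lhcgr and Ptx3 were listed at 0 in all 8. The 7 sperm markers summed to at most 42.9 FPKM, with Tnp2 and Smcp at 0 throughout. The 5 blood markers summed to 301 to 368 FPKM in CX45, 13.3 to 32.0 in 8C, 33.7 to 91.0 in CX22, against 109 in both 2C libraries. Hba-a1 was the highest of them in every library, with 286 and 347 FPKM in CX45, and made up most of these sums. The other globin of the list, Hbb-b1, stayed at or below 0.785 FPKM, and Ptprc at or below 0.0701. Of the oocyte and 2-cell list, 6 of 7 fell in 8C against 2C and 5 of 7 in CX45 against CX22. Of the tested cumulus markers 2 of 4 fell in 8C against 2C, and of the tested blood markers 1 of 3, Hba-a1, rose in CX45 against CX22. Of all genes tested, 20.7% fell in the first comparison, and in the second 13.5% fell and 23% rose. The part of these transcripts in the results was not tested.

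Subunit genes made up a larger share of the transcript pool in CX45 and 8C than in CX22 and 2C. They held 4.25% and 3.74% of all FPKM in the CX45 libraries, 3.88% and 3.20% in 8C, 1.76% and 2.04% in CX22, against 1.79% and 2.13% in 2C. Every CX45 and 8C library lay above every CX22 and 2C library. The median subunit gene stood at 126 and 118 FPKM in CX45, 143 and 121 in 8C, 41.5 and 34.9 in CX22, against 33.0 and 39.1 in 2C. Members listed at 0 numbered 3 and 2 in CX45, 2 and 2 in 8C, 12 and 9 in CX22, against 9 and 5 in 2C.

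**Figure D1:**
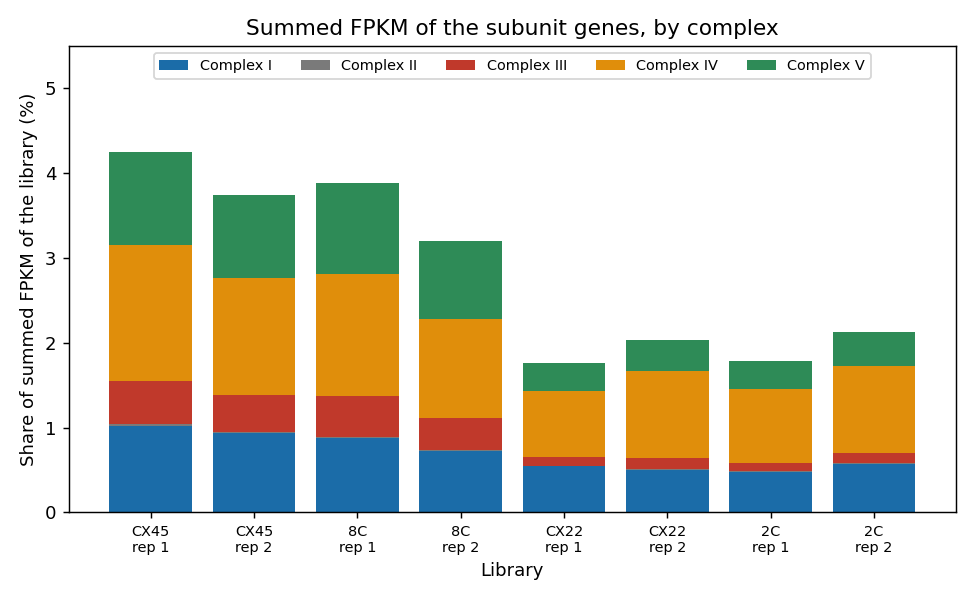
Share of each library's summed FPKM held by the subunit genes of each complex, in percent, for the 2 libraries of CX45, 8C, CX22 and 2C. The all-member share is 4.25% and 3.74% in CX45 and 3.88% and 3.20% in 8C, above the 1.76% to 2.13% of the CX22 and 2C libraries.

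The complexes did not weigh the same in the pool. Complex IV held the largest summed share in every library, 1.60% and 1.37% in CX45, 1.45% and 1.17% in 8C, 0.783% and 1.03% in CX22, against 0.876% and 1.03% in 2C. Complex V held 1.09% and 0.979% in CX45, 1.06% and 0.916% in 8C, 0.327% and 0.367% in CX22, against 0.328% and 0.401% in 2C. The groups CX45 and 8C lay above CX22 and 2C with no overlap in both complexes. Complex I held 1.02% and 0.930% in CX45, 0.876% and 0.722% in 8C, 0.543% and 0.501% in CX22, against 0.477% and 0.572% in 2C. Complex III held 0.507% and 0.441% in CX45, 0.479% and 0.377% in 8C, 0.0991% and 0.136% in CX22, against 0.0994% and 0.118% in 2C. Complex II, with 4 genes, stayed at or below 0.0251% in every library. These shares are descriptions with no test.

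In 8C against 2C, 40 of the 86 tested subunit genes rose and 2 fell, against 16.3% of the 11873 genes tested that rose and 20.7% that fell (37.1% either way). A gene was called where limma's Benjamini-Hochberg adjusted p was under 0.05 and the log2 fold change, on log2(FPKM + 1), was at least 1 in size. The median change of the members was 2.02, against -0.04 for all genes tested. By complex, 8 of 9 tested members of complex III rose (median log2 change 2.73), 9 of 17 of complex V (1.93), 18 of 38 of complex I (2.08), 4 of 18 of complex IV (1.07) and 1 of 4 of complex II (1.13). One member of complex I, Ndufab1, and one of complex IV, Cox6b2, fell. Leaving out an 8C library strongly lowered the number of calls, among the members and among all genes. The median change of the members was then 1.92 without replicate 1 and 2.03 without replicate 2. For all genes it was -0.03 in both fits. Without both CX22 libraries, which this comparison does not use but which add to the estimate of spread, 51 members rose and 2 fell. Of all genes, 2502 rose and 3089 fell in that fit.

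In CX45 against CX22, 45 of the 86 rose and 1 fell, against 23% of all genes tested that rose and 13.5% that fell (36.4% either way). The median change of the members was 1.89, against 0.47 for all genes, a gap of 1.42. All 9 members of complex III rose (median 3.13), as did 10 of 17 of complex V (2.00), 18 of 38 of complex I (1.89), 6 of 18 of complex IV (1.10) and 2 of 4 of complex II (2.42). Cox6b2 fell again. Leaving out a CX45 library strongly lowered the number of calls, among the members and among all genes. The median change of the members was then 1.78 without replicate 1 and 2.03 without replicate 2. For all genes it was 0.47 and 0.38. Without CX22 replicate 1 the medians of members and all genes were 1.81 and 0.44. Without CX22 replicate 2 they were 2.04 and 0.55. The split of all genes depended on scaling: it was 2729 higher and 1597 lower as reported, and 2009 higher and 2091 lower after quantile normalization, which left 37 members higher and 3 lower.

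**Figure D2:**
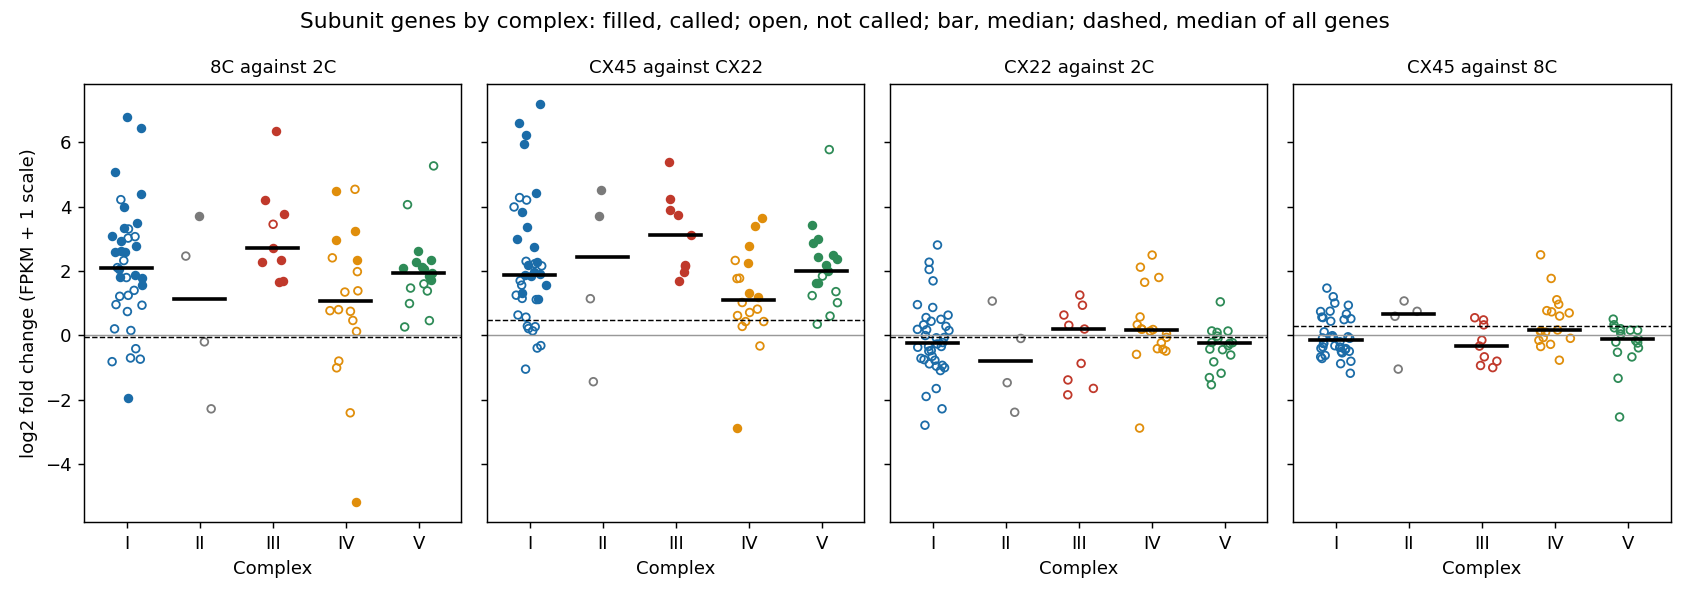
Log2 fold change of each tested subunit gene, on log2(FPKM + 1), by complex and comparison. All tested members of complexes III and V lie above 0 in 8C against 2C and in CX45 against CX22, with complex III medians of 2.73 and 3.13.

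Complex I takes electrons from NADH through a flavin and a chain of iron-sulfur clusters. Its members here were 7 nuclear core subunits and 31 others, mostly supernumerary. Among the core genes, 3 of 7 rose in 8C against 2C and 3 of 7 in CX45 against CX22, and among the other 31 genes 15 rose in each comparison. Ndufs7, the core subunit that holds the last cluster before ubiquinone, had 54.8 and 68.1 FPKM in CX45, 159.7 and 122 in 8C, 0 and 0 in CX22, against 0 and 0.541 in 2C. It was at or near 0 in every CX22 and 2C library and above 54 FPKM in every CX45 and 8C library. Its log2 change was 6.79 ± 0.37 (SE), adjusted p = 0.00194, in 8C against 2C, and 5.96 ± 0.30 (SE), adjusted p = 0.00325, in CX45 against CX22. Ndufv1, the flavin-bearing subunit that binds NADH, stayed low throughout, at 7.28 and 4.51 FPKM in CX45, 6.65 and 9.56 in 8C, 0 and 0 in CX22, against 0 and 0.0968 in 2C, yet rose in both comparisons (3.10 in 8C against 2C and 2.76 in CX45 against CX22, adjusted p = 0.012 and 0.0103). Its neighbour Ndufv2 had 84.7 and 102 FPKM in CX45, 41.9 and 72.7 in 8C, 55.6 and 26.7 in CX22, against 7.02 and 7.33 in 2C. Here the CX22 libraries lay well above the 2C ones, and Ndufv2 rose in 8C against 2C (log2 change 2.78, adjusted p = 0.0225) but was not called in CX45 against CX22 (1.25, adjusted p = 0.102). Ndufs8, another core subunit with iron-sulfur clusters, was called in CX45 against CX22 (3.002, adjusted p = 0.0169) and not in 8C against 2C (2.11, adjusted p = 0.0692). Ndufs1 and Ndufs3 were not called in either, and each had a CX22 library near 0 beside one at 3.56 FPKM or more.

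The supernumerary subunits of complex I surround this core. Ndufa8, a cysteine-rich subunit of the intermembrane space, had 103 and 101 FPKM in CX45, 164 and 127 in 8C, 0 and 0.104 in CX22, against 0.419 and 0.881 in 2C. Its pattern was that of Ndufs7, at or near 0 in CX22 and 2C, and its log2 change was 6.46 ± 0.33 (SE), adjusted p = 0.00194, in 8C against 2C and 6.62 ± 0.27 (SE), adjusted p = 0.00325, in CX45 against CX22. Ndufb7, which lies on the same face of the membrane, had 598 and 594 FPKM in CX45, 469.6 and 384 in 8C, 0.192 and 12.7 in CX22, against 12.8 and 10.7 in 2C. It rose by a log2 of 5.06 in 8C against 2C (adjusted p = 0.0493) and 7.21 in CX45 against CX22 (adjusted p = 0.0124), and its CX22 libraries differed widely. Ndufa12 had 137 and 64.9 FPKM in CX45, 155 and 65.4 in 8C, 0 and 0.645 in CX22, against 3.33 and 4.25 in 2C, with no overlap between CX45 and CX22 or between 8C and 2C. Its changes were 4.41 in 8C against 2C and 6.22 in CX45 against CX22 (adjusted p = 0.0143 and 0.00549). Smaller called changes were those of Ndufb10, Ndufa9 and Ndufa5, at 1.56 and 1.78 for the first and second in 8C against 2C, and 1.33, 1.14 and 1.56 for all of them in CX45 against CX22.

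Some complex I genes were already abundant in 2C. Ndufb6, the complex I gene with the highest level on the mean of the 4 groups, had 968 and 705 FPKM in CX45, 488 and 382 in 8C, 697 and 447 in CX22, against 698 and 746 in 2C and was not called in 8C against 2C (-0.74, adjusted p = 0.206) or CX45 against CX22 (0.56, adjusted p = 0.248). Ndufab1, which is also the mitochondrial acyl carrier protein of fatty acid synthesis, had 52.0 and 78.0 FPKM in CX45, 59.0 and 37.0 in 8C, 121 and 146 in CX22, against 185 and 184 in 2C. The CX45 and 8C libraries lay below all CX22 and 2C libraries. Ndufab1 fell in 8C against 2C (-1.96 ± 0.42 (SE), adjusted p = 0.025), and its change in CX45 against CX22, -1.05, was not called (adjusted p = 0.0734). Over all complexes, 11 of the 24 tested members at 100 FPKM or more in 2C rose in CX45 against CX22 (45.8%, median log2 change 1.10), and 34 of the 62 below that level did (54.8%, median 2.21). Over all genes tested, the shares were 19.5% of 718 genes at 100 FPKM or more and 23.2% of 11155 below it, and the medians were -1.04 and 0.54. The cut at 100 FPKM was chosen after the values were seen.

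**Figure D3:**
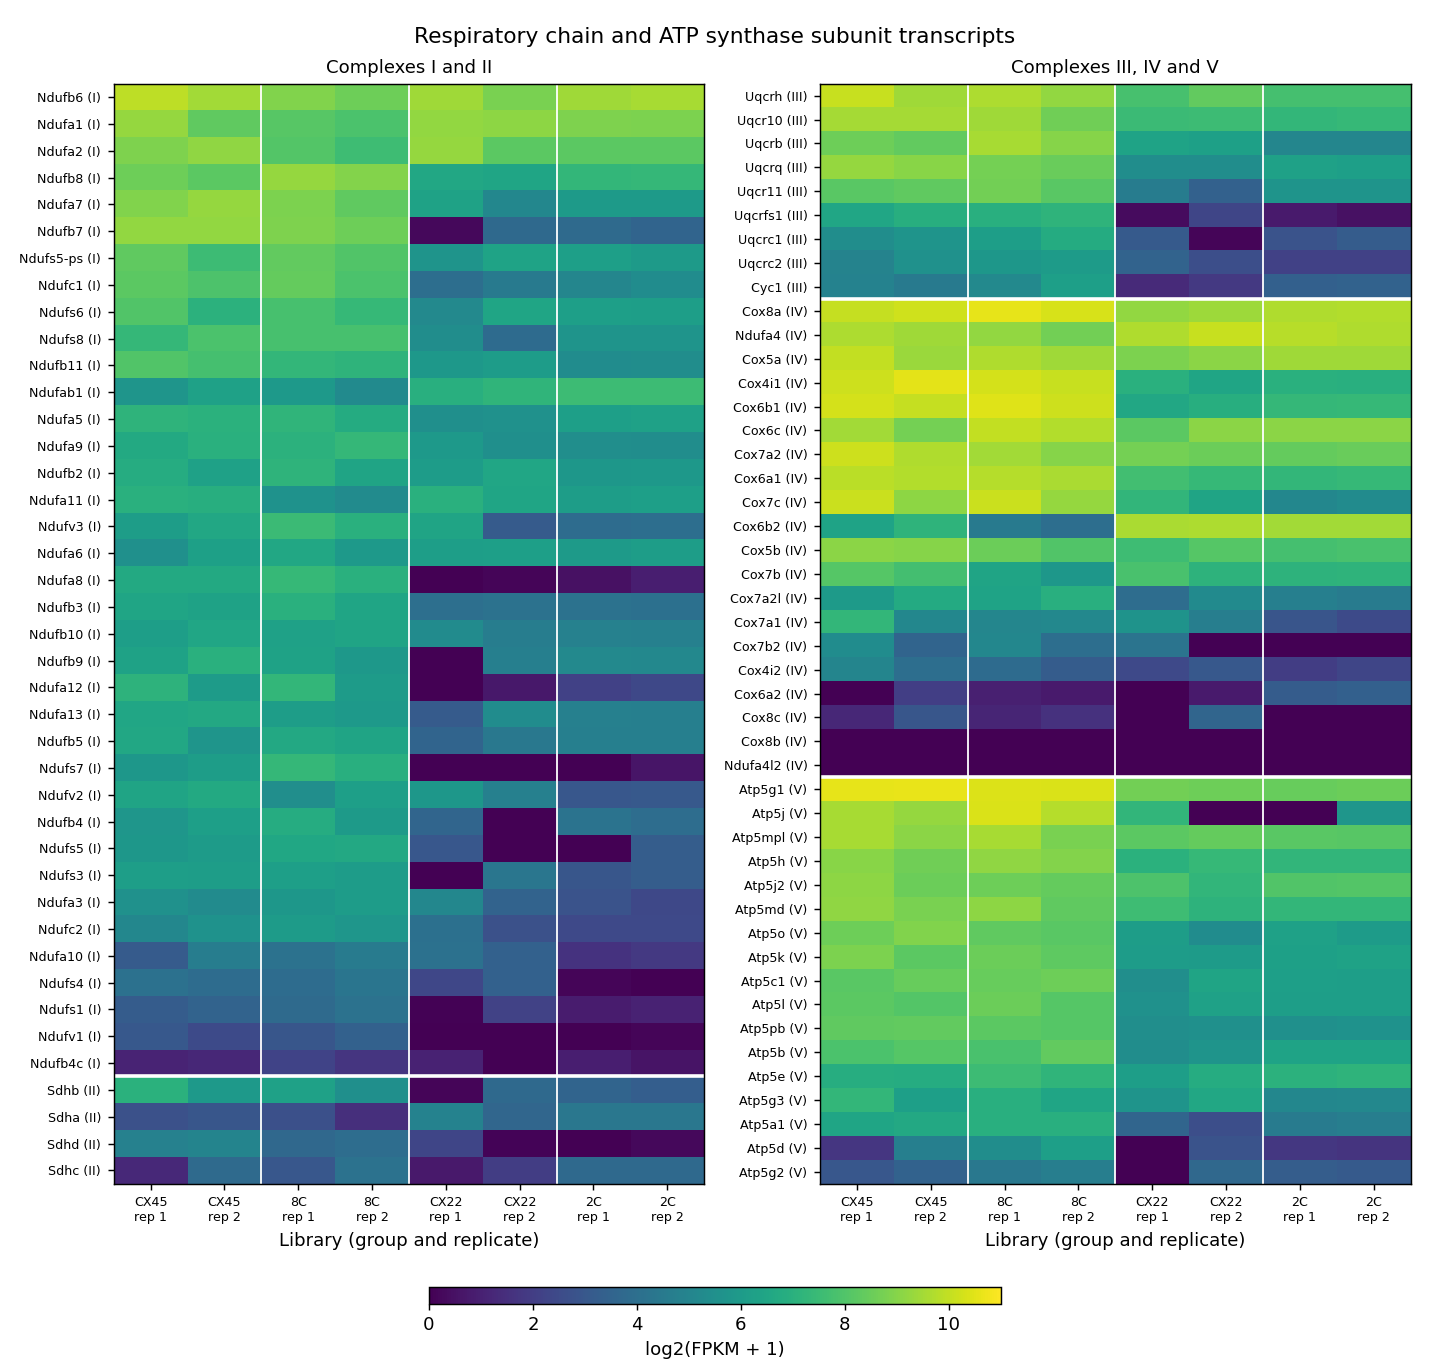
Level of the subunit genes named on the vertical axis, as log2(FPKM + 1), in the 8 libraries, grouped by complex, with CX45 and 8C left of CX22 and 2C. Cox8b and Ndufa4l2 are at 0 in all libraries, Ndufs7 and Ndufa8 are near 0 in CX22 and 2C, and Cox6b2 runs opposite to most of complex IV.

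Complex II, succinate dehydrogenase, is also an enzyme of the tricarboxylic acid cycle and has no subunit encoded in mitochondrial DNA. Sdhd, one of its membrane anchors, had 27.3 and 30.3 FPKM in CX45, 12.3 and 14.2 in 8C, 3.90 and 0.0643 in CX22, against 0 and 0.182 in 2C, and rose in 8C against 2C (3.70 ± 0.97 (SE), adjusted p = 0.0406) and in CX45 against CX22 (3.70 ± 0.79 (SE), adjusted p = 0.0238). Sdhb, the iron-sulfur subunit, had the highest level of the 4 on the mean of the groups, though not in CX22 or 2C. It had 128 and 60.9 FPKM in CX45, 77.7 and 43.5 in 8C, 0.0951 and 12.6 in CX22, against 10.7 and 8.73 in 2C. Its CX22 libraries were far apart, and it was called in CX45 against CX22 (4.53, adjusted p = 0.0499) and not in 8C against 2C (2.46, adjusted p = 0.269). Sdhc, the other anchor, had 1.39 and 12.8 FPKM in CX45, 6.98 and 16.7 in 8C, 0.694 and 3.01 in CX22, against 12.7 and 12.7 in 2C, with the groups overlapping. Sdha, the flavoprotein that oxidises succinate, had 5.62 and 6.59 FPKM in CX45, 5.42 and 1.78 in 8C, 28.6 and 11.5 in CX22, against 19.4 and 19.8 in 2C. Its 8C libraries lay below both 2C libraries, but the change of -2.29 was not called (adjusted p = 0.0792).

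Complex III, which oxidises ubiquinol and reduces cytochrome c, was the complex with the largest share of genes called. Uqcrfs1, the Rieske iron-sulfur protein that takes the first electron from ubiquinol, had 91.1 and 117 FPKM in CX45, 120.2 and 141 in 8C, 0.234 and 3.90 in CX22, against 0.76 and 0.415 in 2C. Every CX45 and 8C library was above 91 FPKM and every CX22 and 2C library below 4. Uqcrfs1 rose in 8C against 2C (6.37 ± 0.86 (SE), adjusted p = 0.00779) and in CX45 against CX22 (5.40 ± 0.70 (SE), adjusted p = 0.00781). Cyc1, the cytochrome that passes the electron on, had 28.5 and 21.4 FPKM in CX45, 34.9 and 73.0 in 8C, 1.48 and 2.50 in CX22, against 9.31 and 9.94 in 2C, and rose in both comparisons (2.28 in 8C against 2C and 3.12 in CX45 against CX22, adjusted p = 0.0372 and 0.0104). The core proteins Uqcrc1 and Uqcrc2 differed in their calls. Uqcrc2 rose in both (3.78 in 8C against 2C and 2.18 in CX45 against CX22, adjusted p = 0.00793 and 0.0186). Uqcrc1 was called in CX45 against CX22 (3.90, adjusted p = 0.0412) and missed the threshold in 8C against 2C (3.45, adjusted p = 0.0915). The small subunit Uqcrb had 379.9 and 327 FPKM in CX45, 749 and 507 in 8C, 81.5 and 75.5 in CX22, against 32.3 and 32.4 in 2C. Its log2 changes were 4.21 in 8C against 2C and 2.15 in CX45 against CX22 (adjusted p = 0.00229 and 0.00689). The hinge protein Uqcrh, the most abundant member of the complex, had 1074 and 694 FPKM in CX45, 801 and 592 in 8C, 219 and 331 in CX22, against 216 and 217 in 2C, and showed the smallest called changes of complex III (1.66 in 8C against 2C and 1.68 in CX45 against CX22, adjusted p = 0.0417 and 0.024). Uqcr10 came next at 1.70 in 8C against 2C and 1.98 in CX45 against CX22, while Uqcr11 changed by 2.73 in 8C against 2C and 4.23 in CX45 against CX22.

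Complex IV, cytochrome c oxidase, has nuclear subunits around a core encoded in mitochondrial DNA, and several of them exist as paired isoforms. Cox6b1 and Cox6b2 encode the subunit on the cytochrome c side, Cox6b1 in most tissues and Cox6b2 mainly in testis. The Cox6b1 gene lies at chr7:31401990-31411133 and Cox6b2 at chr7:4703394-4704696 in mm9. Cox6b1 had 1250.4 and 1043 FPKM in CX45, 1426 and 1133 in 8C, 96.1 and 119 in CX22, against 158 and 165 in 2C. Cox6b2 had 83.3 and 140.1 FPKM in CX45, 22.4 and 14.8 in 8C, 783 and 809 in CX22, against 703 and 701 in 2C. The isoforms changed places: Cox6b2 was 6.25% and 11.8% of their summed FPKM in CX45, 1.55% and 1.29% in 8C, 89.1% and 87.2% in CX22, against 81.7% and 80.9% in 2C. Cox6b1 rose in 8C against 2C (2.97 ± 0.29 (SE), adjusted p = 0.00383) and in CX45 against CX22 (3.41 ± 0.24 (SE), adjusted p = 0.00361). Cox6b2 fell in 8C against 2C (-5.19 ± 0.43 (SE), adjusted p = 0.00276) and in CX45 against CX22 (-2.87 ± 0.35 (SE), adjusted p = 0.00695). The sum of the pair ran from 862 to 1448 FPKM across the libraries, a far narrower range than that of either isoform.

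**Figure D4:**
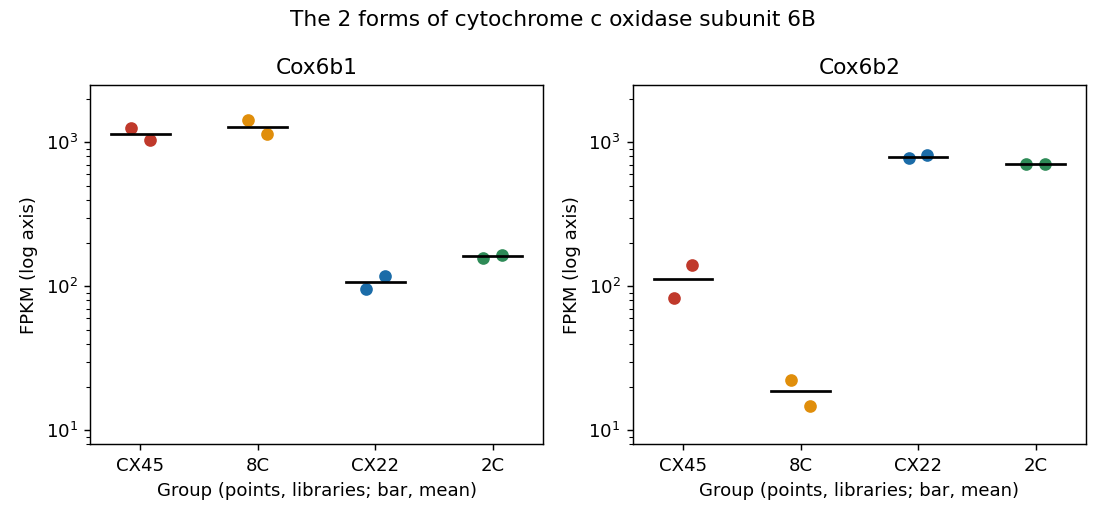
FPKM of Cox6b1 and Cox6b2 in each library of CX45, 8C, CX22 and 2C. Cox6b1 is at or above 1043 FPKM in CX45 and 8C and at or below 165 in CX22 and 2C, while Cox6b2 is at or below 140.1 in CX45 and 8C and at or above 701 in CX22 and 2C.

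The promoters of both isoforms, and those of Ndufs7 and Ndufa8, the complex I genes with the lowest CX22 and 2C levels beside high 8C levels, are shown from 250 bases before to 50 after the RefSeq start, on the coding strand. They come from build GRCm38.p6, whereas the expression table uses mm9. Capitals mark the motifs searched for, on either strand: GCGCANGCG followed by C or preceded by T (NRF1, whose forms overlap each other), CCGGAAG (ETS factors such as GABP), AAGATGGC (YY1) and GGGCGG (Sp1). NRF1, GABP, YY1 and Sp1 are textbook regulators of nuclear genes for mitochondrial proteins. A match is a description of letters and does not show that a factor is bound.
Cox6b1, chr7:30626065-30626364 (minus strand): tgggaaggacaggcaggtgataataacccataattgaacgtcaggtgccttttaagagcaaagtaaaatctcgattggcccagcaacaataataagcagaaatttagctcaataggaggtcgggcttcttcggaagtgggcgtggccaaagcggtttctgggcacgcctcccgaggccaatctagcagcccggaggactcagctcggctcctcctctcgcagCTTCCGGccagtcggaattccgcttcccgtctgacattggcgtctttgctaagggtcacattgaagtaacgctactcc
Cox6b2, chr7:4753045-4753344 (minus strand): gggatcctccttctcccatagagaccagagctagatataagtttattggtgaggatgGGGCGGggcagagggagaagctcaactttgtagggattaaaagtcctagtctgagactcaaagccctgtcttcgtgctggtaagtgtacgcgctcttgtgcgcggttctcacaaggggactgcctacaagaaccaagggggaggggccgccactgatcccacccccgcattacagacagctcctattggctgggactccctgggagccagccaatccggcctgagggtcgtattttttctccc
Ndufs7, chr10:80249199-80249498 (plus strand): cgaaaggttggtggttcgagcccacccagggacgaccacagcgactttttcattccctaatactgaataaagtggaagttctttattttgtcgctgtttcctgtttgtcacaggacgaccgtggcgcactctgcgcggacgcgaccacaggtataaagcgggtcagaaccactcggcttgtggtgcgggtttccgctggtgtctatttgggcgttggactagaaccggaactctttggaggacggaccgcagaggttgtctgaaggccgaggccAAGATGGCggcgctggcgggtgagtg
Ndufa8, chr2:36049289-36049588 (minus strand): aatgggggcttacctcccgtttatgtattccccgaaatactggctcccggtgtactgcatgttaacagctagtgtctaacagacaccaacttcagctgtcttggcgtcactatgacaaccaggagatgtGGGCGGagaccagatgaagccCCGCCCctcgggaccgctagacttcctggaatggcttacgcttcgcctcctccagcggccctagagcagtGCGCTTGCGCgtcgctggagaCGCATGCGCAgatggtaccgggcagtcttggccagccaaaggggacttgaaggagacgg

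The Cox6b1 window held an ETS match whose first base lies at -28, counted from the start, and the Cox6b2 window held only a GGGCGG at -193. Ndufa8 held NRF1 matches at -30 and -9 and GGGCGG matches at -121 and -100, and Ndufs7 held AAGATGGC at 24. A promoter was given for 69 of the 88 members, in 74 windows. An NRF1 motif was found in 27.5% of these members, 12.7% of the 9528 genes tested that had a promoter and 5.92% of all 27025 genes of the promoter table. AAGATGGC was found in 14.5%, 5.22% and 3.19% of the same sets, and CCGGAAG in 24.6%, 20.0% and 9.93%. GGGCGG was found in 42.0% of members, 64.5% of genes tested and 38.2% of all genes. Members that rose in 8C against 2C and members that did not held NRF1 motifs at 27.3% and 28.6%. By complex, an NRF1 motif was found in 7 of 15 members of complex V, 8 of 32 of complex I, 1 of 14 of complex IV, 1 of 5 of complex III and 2 of 3 of complex II.

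Apart from Cox6b2, no complex IV gene was called lower in either comparison. In 8C against 2C the changes of Cox6a2, Cox7b and Ndufa4 were below 0 (-2.41, -1.01 and -0.80) and were not called. Cox4i1, the largest nuclear subunit, had 1150.1 and 1500.0 FPKM in CX45, 1269 and 1081 in 8C, 125 and 87.9 in CX22, against 124 and 122 in 2C, with no overlap between high and low groups (3.24 ± 0.34 (SE), adjusted p = 0.00431, in 8C against 2C; 3.63 ± 0.28 (SE), adjusted p = 0.00391, in CX45 against CX22). Cox7c had 1107 and 566 FPKM in CX45, 1122 and 615 in 8C, 152 and 86.1 in CX22, against 33.2 and 38.5 in 2C, and rose in both (4.50 in 8C against 2C and 2.78 in CX45 against CX22, adjusted p = 0.00901 and 0.0177). Cox6a1 rose too (2.34 in 8C against 2C and 2.26 in CX45 against CX22, adjusted p = 0.00452 and 0.0047). Cox5b and Cox7a2 were called in CX45 against CX22 (1.18 and 1.31, adjusted p = 0.0336 and 0.0239) and not in 8C against 2C. Cox8a, the complex IV gene with the highest level on the mean of the 4 groups, had 1035 and 1196 FPKM in CX45, 1553 and 1291 in 8C, 588 and 679 in CX22, against 827 and 859.5 in 2C. Its change of 0.81 in CX45 against CX22 had an adjusted p of 0.0435 but was under the size needed for a call. The isoforms known from heart and skeletal muscle (Cox6a2 and Cox7a1), lung (Cox4i2) and testis (Cox7b2 and Cox8c) were minor beside their partners, and none was called in any of the 4 comparisons. Cox6a2 was at most 5.34% of its pair, Cox7a1 at most 12.0%, Cox4i2 at most 7.42% and Cox8c at most 1.61%. Cox7b2 reached the largest share, 28.0% and 20.9% in 8C, against 0% in both 2C libraries. Its levels were 39.6 and 10.7 FPKM in CX45, 33.1 and 14.9 in 8C, 17.9 and 0 in CX22, against 0 and 0 in 2C, and neither change was called (4.54 in 8C against 2C and 2.33 in CX45 against CX22, adjusted p = 0.127 and 0.309). Cox7a2l, a supercomplex assembly factor named like a subunit, and Ndufa4 were not called in either comparison.

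Complex V joins a catalytic head (F1), a rotor with a ring of c subunits, and a peripheral stalk. In the head, Atp5a1 had 87.8 and 98.5 FPKM in CX45, 124 and 121 in 8C, 11.2 and 5.20 in CX22, against 22.9 and 25.5 in 2C, and rose in both comparisons (2.29 in 8C against 2C and 3.44 in CX45 against CX22, adjusted p = 0.0206 and 0.0059). Atp5b, which carries the catalytic sites, had 234 and 272 FPKM in CX45, 226 and 327 in 8C, 40.7 and 51.3 in CX22, against 81.7 and 81.9 in 2C (1.72 in 8C against 2C and 2.44 in CX45 against CX22, adjusted p = 0.019 and 0.00616). For both genes the CX22 libraries lay below the 2C libraries, with no call between them. Atp5c1, the central shaft, rose by 2.35 in 8C against 2C and 2.37 in CX45 against CX22. Atp5d and Atp5e, the other subunits of the shaft, were not called in either comparison. In the stalk, Atp5pb had 316 and 327 FPKM in CX45, 301 and 276 in 8C, 41.9 and 44.5 in CX22, against 45.5 and 47.2 in 2C, close agreement within each group, and rose in both (2.61 ± 0.21 (SE), adjusted p = 0.00278, in 8C against 2C; 2.87 ± 0.18 (SE), adjusted p = 0.00325, in CX45 against CX22). Atp5o, which joins stalk and head, had changes of 2.08 in 8C against 2C and 3.01 in CX45 against CX22, and Atp5h of 1.83 in 8C against 2C and 1.62 in CX45 against CX22. Atp5j, another stalk subunit, was listed at 0 in one CX22 and one 2C library (758 and 603 FPKM in CX45, 1312 and 886 in 8C, 152 and 0 in CX22, against 0 and 54.0 in 2C), and its large changes were not called (5.27 in 8C against 2C and 5.78 in CX45 against CX22). Atp5md, a small subunit at the dimer interface, rose in CX45 against CX22 (1.61, adjusted p = 0.0289) and was not called in 8C against 2C (1.47, adjusted p = 0.062).

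The c ring is encoded by Atp5g1, Atp5g2 and Atp5g3, whose mature proteins are identical. Atp5g1, the most abundant complex V gene, had 1531 and 1612 FPKM in CX45, 1376 and 1346 in 8C, 407 and 379 in CX22, against 350.0 and 365 in 2C. It held 77.7% to 95.1% of the summed FPKM of the trio in all 8 libraries, and rose in 8C against 2C (1.93 ± 0.22 (SE), adjusted p = 0.00522) and in CX45 against CX22 (2.00 ± 0.18 (SE), adjusted p = 0.00469). Atp5g3 had 157 and 72.8 FPKM in CX45, 123 and 87.7 in 8C, 50.8 and 97.1 in CX22, against 32.7 and 34.5 in 2C, and Atp5g2 6.87 and 9.86 FPKM in CX45, 20.1 and 24.8 in 8C, 0 and 12.0 in CX22, against 8.36 and 7.58 in 2C. Neither was called. No change of isoform like that of Cox6b was seen in the shares of the c-ring genes.

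The comparisons 8C against 2C and CX45 against CX22 share no library. Of the 40 members that rose in 8C and the 45 that rose in CX45, 36 rose in both, 90% of the first and 80% of the second list. Over all genes tested, 1479 rose in both, 76.2% of 1940 and 54.2% of 2729. Cox6b2 was the only member that fell in both, against 1269 of the 11873 genes tested. In opposite directions, 0 of 86 members and 67 of 11873 genes were called. At so low a share over all genes, the 0 is nothing particular to the members. Pearson's r between the log2 changes was 0.80 and Spearman's rho 0.74 over 86 members, and 0.79 and 0.77 over all genes, given as descriptions since genes are not replicates and the fit shares its spread. The difference between the steps was tested itself, a test chosen after the data were seen. In it 0 of 86 members passed, against 428 of 11873 genes (3.6%). At an unadjusted p under 0.05 stood 4 members and 2412 of all genes. The smallest adjusted p among members was 0.0797, for Uqcrb, whose change was smaller in CX45 against CX22 by 2.06. A p that misses the threshold does not show that the steps were equal. Under every alternative run, 11 of 42 calls of 8C against 2C and 21 of 46 of CX45 against CX22 held. All 11 were among the 21: Ndufs7, Ndufa8, Ndufb3, Ndufc1, Uqcrb, Uqcrq, Cox4i1, Cox6a1, Cox6b1, Cox6b2 and Atp5pb. The same count was not made over all genes, so the members cannot be called steadier than other genes.

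**Figure D5:**
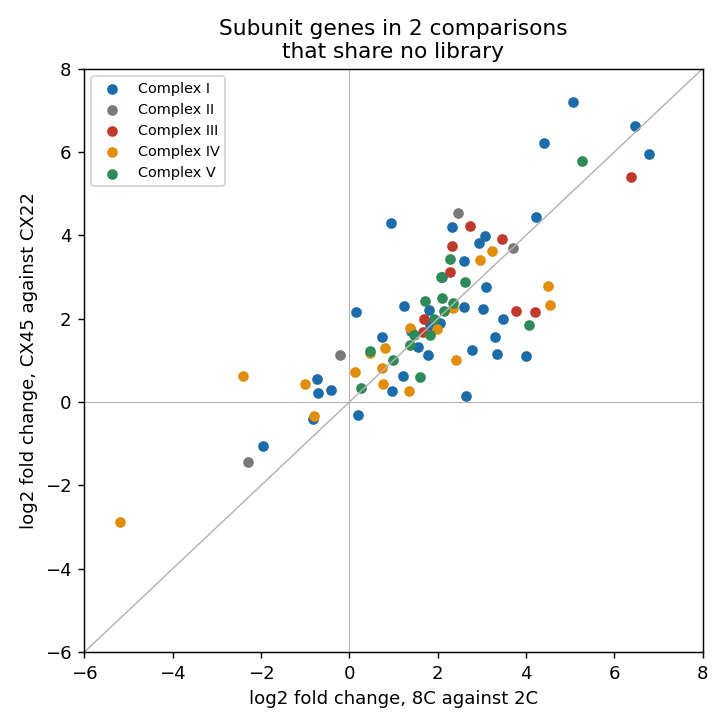
Log2 fold change of each tested subunit gene in CX45 against CX22 (vertical) and in 8C against 2C (horizontal), coloured by complex, with the line of equality. Most points lie in the upper right, with r of 0.80 over 86 genes, and Cox6b2 lies alone at the lower left at -5.19 and -2.87.

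In CX22 against 2C, 0 of the 86 members were called by limma, against 0.598% of all genes that rose and 3.29% that fell (3.89% either way). At an unadjusted p under 0.05, 4 of 86 members were higher and 7 lower, beside 1921 of the 11873 genes tested, a larger share. The median change of the members was -0.16, against -0.07 for all genes. The members with the smallest p were Ndufs4, Ndufv2 and Uqcrb. Ndufs4, an accessory subunit near the NADH-binding arm, had 4.13 and 9.64 FPKM in CX22 and 0.108 and 0 in 2C (log2 change 2.81, adjusted p = 0.0889). Its levels were 16.3 and 13.7 FPKM in CX45 and 13.9 and 18.1 in 8C, so CX22 lay between 2C and these groups. Ndufv2 changed by 2.27 (adjusted p = 0.141) and Uqcrb by 1.25 (adjusted p = 0.141). With the 2C libraries counted as 2 samples, 7 of 86 members were called, 3 higher and 4 lower. That setting called 1616 of the 11873 genes tested, 494 higher and 1122 lower, a larger share. Without CX22 replicate 2 the median change was -0.06 for the members and -0.07 for all genes.

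In CX45 against 8C, 0 of the 86 members were called, against 0.463% of all genes that rose and 0.202% that fell (0.665% either way). At an unadjusted p under 0.05, 8 of 86 members were higher and 3 lower, beside 2286 of the 11873 genes tested, a larger share. The median change of the members was -0.07, against 0.31 for all genes. Upper quartile scaling moved the median of all genes to 0.05 and that of the members to -0.47, and the split of all genes to 13 higher and 17 lower, where 55 and 24 stood before. Relative to the median of all genes, the members lay 0.37 below as reported and 0.52 below after that scaling, and 0.07 below after quantile normalization. Cox6b2 had the smallest p, with 83.3 and 140.1 FPKM in CX45 and 22.4 and 14.8 in 8C (2.50 ± 0.35 (SE), adjusted p = 0.0642). Both CX45 libraries lay above both 8C libraries, and far below those of CX22 and 2C. The sum of the oocyte and 2-cell transcripts was placed alike, with CX45 above 8C and below both CX22 and 2C. So were Gdf9, Bmp15, Oosp1, Zscan4d and Nlrp5, the last with a log2 change of only 0.25 in CX45 against 8C. Zp3 was not, at 54.3 and 29.5 FPKM in CX45 against 14.7 and 15.5 in 2C. Nor was Zfp352, at 20.9 and 179 FPKM in CX45 against 113 and 96.3 in CX22. The part of these transcripts in the Cox6b2 levels was not tested. Ndufa11, a membrane-arm subunit of complex I, had 124 and 119 FPKM in CX45 and 48.4 and 38.5 in 8C (1.47, adjusted p = 0.0881). Cox7b, an X-linked subunit of complex IV, had 276 and 206 FPKM in CX45 and 85.2 and 56.2 in 8C (1.77, adjusted p = 0.106). In all of these the libraries did not overlap. With the 2C libraries counted as 2 samples all were called, though this comparison uses no 2C library. The 2C pair then enters only the estimate of spread, so these calls are no separate evidence. That setting called 1037 of the 11873 genes tested, 839 higher and 198 lower, a larger share than that of the members.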

How the data were processed

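RNA of 8 libraries was measured by Smart-seq on a BGISEQ500 machine, per the labels. Per the submitters' processing notes, HISAT2 (listed as version 4.8.2), Cufflinks 2.2.1 and build mm9 were used; their settings and the annotation release: not given in the sources used here. In all, the deposited table holds the authors' FPKM per RefSeq transcript and locus. Of 41876 entries, 41685 matched a symbol and were summed per gene, including 337 accessions listed at more than 1 locus. For 30 members more than 1 entry was summed, and 15 annotated pseudogenes carry the names of 10 members, so levels of such genes are uncertain. Coordinates were read as counted from 0 and are printed from 1.

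The test took the 11873 genes that reached 1 FPKM in at least 2 libraries, on log2(FPKM + 1), which understates changes of low genes. Depth was read from single-exon genes, where 98.75% to 100% of 62 to 95 values per library lay within 0.05 of whole fragments. The design had assumed 8 separate libraries. After the check of the 2C pair on single-exon genes, its mean entered as 1 sample, assumed to vary like the other groups. One limma 3.58.1 fit (R 4.3.3) with a mean trend held all groups, with 3 residual degrees of freedom. Tests were two-sided, adjusted over all genes. The code was tested on simulated data. Replicate numbers did not pair samples: deviations of same-numbered libraries correlated at -0.000904 to 0.105. Named members were, per comparison and complex, up to 3 called genes at either extreme of log2 change, those with the smallest p where none was called, the most abundant per complex, the isoform sets, all of complex II, and those at 0 in one group; others were named after their values were seen. One member is counted in the totals and is not reported by itself here. The members and lists were chosen with earlier results of these data known. Alternatives covered the pseudocount, filters, scaling, transcript choice, separate libraries, a replicate block and leaving out libraries.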

Additional observations from a re-analysis of the deposited data

How the results depend on the processing

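No called member changed sign under any alternative. The median change of the members in CX45 against 8C, -0.07 as reported, was 0.18 without 8C replicate 1 and 0.05 without CX45 replicate 2. Over all genes, the split of calls turned to more lower than higher in CX45 against CX22 under quantile normalization (2009 higher and 2091 lower, against 2729 and 1597 as reported), and in CX45 against 8C under upper quartile scaling (13 and 17, against 55 and 24). Leaving out a library in turn gave 12 to 52 called members in 8C against 2C (42 as reported), 23 to 51 in CX45 against CX22 (46), 0 to 7 in CX22 against 2C (0) and 0 throughout in CX45 against 8C (0). The number of calls among all genes also varied widely between these fits, so the ranges do not set the members apart from other genes. In CX45 against 8C no gene at all was called without an 8C, CX22 or CX45 library. The lack of called members in those fits is therefore nothing particular to them. In CX22 against 2C, 1 member was called with a pseudocount of 0.1 and 1 with only the highest transcript of a gene. The same counts over all genes were 467 and 461. With 8 separate libraries 7 were called, and 8 with a replicate block on those libraries, against 1616 and 1346 of all genes. In CX45 against 8C, 3 members were called with separate libraries and 3 with the replicate block, against 1037 and 710 of all genes. With the block, 58 members were called in 8C against 2C and 57 in CX45 against CX22, beside 6634 and 5329 of all genes. The numbers only name the libraries, so no pairing follows. Without both CX22 libraries, an alternative added after seeing the data, 53 members were called in 8C against 2C and 0 in CX45 against 8C. For all genes these counts were 5591 and 0. Over all genes, 8C against 2C gave 6697 calls with separate libraries and 4400 as reported. Fits that leave 1 library in a group assume that it varies like the rest, and with 3 residual degrees of freedom changes of moderate size go uncalled. Depth limits the genes near 0, such as Ndufv1 and Ndufs4 in 2C. The cause of these differences was not tested.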

Other observations

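Assembly factors help to build the complexes and are not part of them. Of 45 tested assembly factors, 14 rose and 5 fell in 8C against 2C, 12 rose and 4 fell in CX45 against CX22, 0 rose and 1 fell in CX22 against 2C, and none was called in CX45 against 8C. Of all genes tested, 16.3% rose and 20.7% fell in 8C against 2C, and 23% rose and 13.5% fell in CX45 against CX22. The shares of assembly factors that rose were 31.1% and 26.7%, the second close to that of all genes. Ndufaf2, a paralogue of the subunit Ndufa12 that holds its place during complex I assembly, had 55.2 and 34.8 FPKM in CX45, 37.8 and 23.3 in 8C, 435 and 307 in CX22, against 422 and 398 in 2C. It fell in 8C against 2C (-3.74 ± 0.47 (SE), adjusted p = 0.00673) and in CX45 against CX22 (-3.03 ± 0.39 (SE), adjusted p = 0.00763), the comparisons in which Ndufa12 rose. Sdhaf4, an assembly factor of complex II, fell as well (-4.65 and -5.59, adjusted p = 0.0338 and 0.0128), as did Cmc1, a factor of complex IV (-3.70 and -1.53, adjusted p = 0.00535 and 0.0279). Tmem70, needed for the ATP synthase, rose (4.40 and 2.74, adjusted p = 0.00345 and 0.0069). These genes were named after their values were seen, and the adjusted p-values are those of limma.

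Of 16 genes of the tricarboxylic acid cycle and pyruvate dehydrogenase, 7 rose and 5 fell in 8C against 2C, and 7 rose and 4 fell in CX45 against CX22. In both, 43.8% of the list rose, against the 16.3% and 23% of all genes. The 5 of 16 and 4 of 16 that fell stood beside 20.7% and 13.5% of all genes. Either way, 75% and 68.8% of the list were called, against 37.1% and 36.4% of all genes, so calls were more frequent in both directions. Idh3b, a subunit of NAD-dependent isocitrate dehydrogenase, was listed at 0 in all CX22 and 2C libraries and had 24.1 and 43.9 FPKM in CX45 and 44.0 and 92.5 in 8C. Fh1, fumarase, differed between the comparisons: it had 12.3 and 5.02 FPKM in CX45, 1.61 and 2.11 in 8C, 0 and 0 in CX22, against 24.1 and 21.9 in 2C, fell in 8C against 2C and in CX22 against 2C, and rose in CX45 against CX22. In CX22 against 2C it was the only gene of this list called, and none was called in CX45 against 8C. Of 16 tested regulators of mitochondrial DNA expression and biogenesis, 3 rose in 8C against 2C and 6 in CX45 against CX22, with 0 lower in either and 0 called in the other comparisons. These are 18.8% and 37.5% of the list, against the same 16.3% and 23% of all genes, so the first is close to the share of all genes. Nrf1, one of the factors whose motifs were searched for, had 7.02 and 17.3 FPKM in CX45, 11.9 and 19.8 in 8C, 1.18 and 1.04 in CX22, against 0.626 and 0.37 in 2C (3.45 and 2.53, limma adjusted p = 0.0205 and 0.0266). The others in this list, Gabpa, Gabpb1 and Yy1, were not called in 8C against 2C (0.89, 0.18 and -0.04). In CX45 against CX22 Gabpa rose (1.07, limma adjusted p = 0.039), and Gabpb1 and Yy1 were not called (0.63 and 0.73).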
